A study of Mus musculus with 48 samples.

Results

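The genes described here are the protein-coding mouse genes whose symbol starts with Kcn, the pore-forming and auxiliary subunits of potassium channels. They were chosen by symbol and biotype in the deposited gene table, which gave 94 members among 21970 protein-coding genes and 56748 genes in all. A further 5 noncoding genes with Kcn symbols were not counted as members. No member was without counts in every library, and 83 of the 94 had enough counts to be tested in the fit of all libraries. The other 11 members, Kcna7, Kcna10, Kcne1, Kcne3, Kcnj1, Kcnj15, Kcnk7, Kcnk16, Kcnk18, Kcnmb3 and Kcnv2, were too low to test in any region.

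Potassium channels let potassium leave or enter the cell along its gradient, and so set the resting potential, shape the action potential and limit repetitive firing. Voltage-gated pores of the Kv families are built as tetramers and can carry cytosolic beta or KChIP subunits, and some members form no channel alone but alter the gating of Kv2 partners (the electrically silent subunits). Inward rectifiers and leak channels of the two-pore-domain type hold the membrane near rest, and in glia an inward rectifier takes up potassium released by neurons. In the cerebellum, Kv3 channels are known for the narrow spikes of fast-firing neurons, and in cortex and hippocampus Kv7 channels carry the M current.

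Polyadenylated RNA was sequenced from dissected cerebellum, medial prefrontal cortex, dorsal hippocampus and ventral hippocampus of mice aged 16 weeks and fed normal chow. Libraries labelled KO came from 129/Sv-Cyp2e1tm1Gonz/J mice, a line with a targeted Cyp2e1 gene, which encodes an ethanol-oxidising cytochrome P450, and libraries labelled WT came from 129S1/SvImJ mice. Both labels held females and males, with 3 libraries for each of 16 combinations and 48 in all; the design text calls them biological replicates, but it is not stated whether the regions of equal number share an animal, or whether the WT mice were littermates of the KO mice. The genotype labels name a separate substrain for each label, so effects of the targeted gene and of the substrain cannot be told apart.

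The targeted gene went against its label. Cyp2e1 had 34 to 111 counts in libraries labelled KO, against 0 to 8 counts in libraries labelled WT, so "KO" and "WT" are used below only as labels. Library totals ran from 14.6 to 25.9 M counts (median 16.6 M), of which Kcn genes took between 0.535% and 0.704%, and 84 to 90 members were detected in a library. The extraction protocol speaks of liver lysates, but the summed level of 6 hepatocyte markers stayed between 0.0680 and 0.851 CPM (counts scaled to a library total of 1 M) in all 48 libraries, with Fgb at 0. The tissue labels were less even. In the cerebellum, 8 granule cell markers summed to between 165 and 5786 CPM, and 3 cerebellar libraries labelled WT lay at 306 CPM or below. Brainstem markers summed to between 28.2 and 614 CPM there (median 171). Their medians were 0.689 CPM in prefrontal cortex, 1.24 CPM in dorsal and 1.97 CPM in ventral hippocampus. Thalamus markers had a median of 223 CPM in cerebellum, against 19.0, 81.8 and 42.2 CPM in the same order. In the ventral hippocampus, the same sum had a median of 94.6 CPM but reached 2929 CPM in KO male 3, 3244 CPM in WT male 1 and 1884 CPM in WT male 2, and in the dorsal hippocampus it reached 1703 CPM in KO male 1. By a rule on the mean log2 level of granule cell, striatal or habenular markers (more than 1.5 from the region's median), 14 libraries stood apart (5 cerebellar, 1 prefrontal, 4 dorsal and 4 ventral hippocampal), and called counts are given with and without them, as are values of named members that then move by over 1.5 times.

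Promoter sequences are shown for 4 members with large differences between cerebellum and forebrain, as the places where those contrasts would be followed up. Kcng4 and Kcne1l were higher in cerebellum, and Kcnj4 and Kcnf1 were higher in forebrain. Each run is the 250 bases before the annotated start, on the minus strand, from RefSeq on GRCm38.p6, written 5′ to 3′. Capitals mark matches to a GC box (GGGCGG) or an E-box (CAGCTG), searched on both strands, and overlapping matches run together.
Kcng4, chr8:119635681-119635930: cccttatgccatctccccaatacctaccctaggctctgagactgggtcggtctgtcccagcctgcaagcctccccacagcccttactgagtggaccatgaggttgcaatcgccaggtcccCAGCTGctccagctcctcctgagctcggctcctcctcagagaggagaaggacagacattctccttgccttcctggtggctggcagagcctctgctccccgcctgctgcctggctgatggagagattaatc
Kcne1l, chrX:142306199-142306448: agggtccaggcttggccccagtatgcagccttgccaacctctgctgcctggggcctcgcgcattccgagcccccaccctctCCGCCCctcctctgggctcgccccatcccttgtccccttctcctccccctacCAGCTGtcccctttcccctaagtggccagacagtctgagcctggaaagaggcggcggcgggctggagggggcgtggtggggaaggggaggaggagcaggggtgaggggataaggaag
Kcnj4, chr15:79505242-79505491: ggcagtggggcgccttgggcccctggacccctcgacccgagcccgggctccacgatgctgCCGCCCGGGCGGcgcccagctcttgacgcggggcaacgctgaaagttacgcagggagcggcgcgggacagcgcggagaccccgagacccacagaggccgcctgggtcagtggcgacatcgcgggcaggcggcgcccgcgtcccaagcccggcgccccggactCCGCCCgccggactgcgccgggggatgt
Kcnf1, chr12:17176889-17177138: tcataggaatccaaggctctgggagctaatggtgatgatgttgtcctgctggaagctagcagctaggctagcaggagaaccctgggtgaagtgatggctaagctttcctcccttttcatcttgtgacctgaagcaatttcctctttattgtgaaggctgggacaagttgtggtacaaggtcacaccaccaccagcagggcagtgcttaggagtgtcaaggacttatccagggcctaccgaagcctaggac

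The 4 windows differ in base composition. The Kcnj4 window was 77.2% G or C with 35 CpG dinucleotides and 3 GC boxes, whereas the Kcnf1 window was 51.2% G or C with 1 CpG and no match to either motif. Kcng4 (60.4% G or C) held 1 E-box, and Kcne1l (68.0%) held 1 GC box and 1 E-box. Of the 94 members, 69 matched the RefSeq table by symbol, with 94 windows between them. A GC box stood in 44.7% of these member windows, against 32.7% of all 32851 windows of the same length. The full set covered 27025 symbols and was not limited to protein-coding genes. Its median was 52.4% G or C, against 58.6% for member windows, so the sets compared are unlike. For the E-box the shares were 23.4% of member windows and 13.0% of all windows, and for the TATA box (TATAAA) 3.19% and 12.4%. The palindromic cAMP response element (CRE) was found in no member window and in 1.55% of all windows. A match is a run of letters, not a shown binding site.

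Levels are compared between genes as RPKM, that is CPM scaled by TMM over all 48 libraries and divided by the deposited gene length in kilobases. Levels and their sums include the libraries that stood apart. The number of members at or above 10 RPKM was 27 in cerebellum, 32 in medial prefrontal cortex, 31 in dorsal hippocampus and 31 in ventral hippocampus, and 64, 68, 68 and 69 members reached 1 RPKM in the same order. Between 12 and 15 members lay under 0.1 RPKM in any region. Among the high levels in cerebellum were those of the glial inward rectifier Kcnj10 (86.9 ± 22.4 RPKM), Kcnc1 (57.1 ± 16.4 RPKM), the beta subunit Kcnab3 (46.9 ± 15.0 RPKM) and the leak channel Kcnk1 (43.1 ± 14.4 RPKM), each as mean ± SD over 12 libraries. In medial prefrontal cortex the first place was held by the inward rectifier Kcnj4 (73.5 ± 4.92 RPKM), followed by the beta subunit Kcnab2 (51.9 ± 3.16 RPKM), Kcnj10 (45.5 ± 3.99 RPKM), Kcnh3 of the ELK group (41.7 ± 2.31 RPKM) and Kcnip2 (37.6 ± 6.67 RPKM). Dorsal hippocampus was led by Kcnab2 (62.8 ± 8.49 RPKM), Kcnj10 (60.2 ± 9.47 RPKM) and Kcnj4 (49.4 ± 7.90 RPKM). Ventral hippocampus had Kcnj4 (52.5 ± 10.1 RPKM), Kcnab2 (50.3 ± 7.12 RPKM) and Kcnj10 (43.5 ± 8.53 RPKM) among its high levels. Kcnj10 was thus near the top in each region, while Kcnj4 was low in cerebellum (2.25 ± 1.52 RPKM).

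Summed levels by role differed between the regions. The 4 Kv3 genes summed to 208 ± 45.2 RPKM in cerebellum, against 94.7 ± 4.71 in medial prefrontal cortex, 113 ± 12.2 in dorsal and 124 ± 37.1 in ventral hippocampus. The ventral sum reached 199 RPKM, and its median of 106 RPKM lay below the dorsal median of 108 RPKM. Kv7 genes summed to 34.0 ± 6.85 RPKM in cerebellum, against 69.2 ± 3.73 in prefrontal cortex, 59.2 ± 4.90 in dorsal and 51.6 ± 7.98 in ventral hippocampus. The EAG, ERG and ELK genes followed the same order, at 39.9 ± 7.06 RPKM in cerebellum, against 97.3 ± 6.38, 68.0 ± 7.90 and 56.9 ± 7.70 RPKM. Their leading member differed: Kcnh2 (ERG) took 57.1% of the sum in cerebellum, whereas Kcnh3 led in the forebrain regions with 42.9%, 38.7% and 43.3%.

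The 10 silent subunits also changed leader. Their sum was 44.3 ± 17.8 RPKM in cerebellum, where Kcng4 alone made up 76.7%, against 93.3 ± 5.25 in prefrontal cortex, 71.0 ± 6.67 in dorsal and 72.4 ± 7.15 in ventral hippocampus, where Kcnf1 came first. Kv1 genes, the axonal low-threshold channels, varied less, between 66.5 ± 9.17 RPKM in ventral hippocampus and 93.4 ± 15.2 RPKM in cerebellum, with Kcna2 first throughout. The 15 inward rectifiers summed to 178 ± 12.6 RPKM in cerebellum, against 219.9 ± 9.52, 208 ± 9.36 and 194 ± 7.14 RPKM in the forebrain regions in that order. The leak channels (14 genes) summed to 104 ± 22.7 RPKM in cerebellum and to between 81.0 and 83.0 RPKM on average elsewhere, and Kcnk1 was first in each. Among calcium-activated and sodium-activated channels, Kcnma1 made up over 96% of the large-conductance pore level in each region, and Kcnt1 97.3% of the sodium-activated sum in cerebellum. Cerebellar libraries spread more widely than forebrain ones in most of these sums.

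Auxiliary subunits and the remaining channels differed in which member led. Among the 3 beta subunits Kcnab3 led in cerebellum (50.3% of the sum) and Kcnab2 in the forebrain (63.4% in prefrontal cortex, 57.1% in dorsal and 62.6% in ventral hippocampus). The 3 Kv4 pores, which carry the A current of dendrites, were led by Kcnd2 everywhere. Together the 3 summed to 52.1 ± 19.5 RPKM in cerebellum, against 37.4 ± 1.88 in prefrontal cortex, 48.1 ± 2.95 in dorsal and 42.1 ± 9.13 in ventral hippocampus. Of the KChIP partners of Kv4 pores, Kcnip3 led in cerebellum and ventral hippocampus and Kcnip2 in prefrontal cortex and dorsal hippocampus. The 5 KCNE genes summed to 7.94 ± 1.71 RPKM in cerebellum, 90.2% of it Kcne1l, and to at most 3.53 RPKM on average elsewhere. Beta subunits of the large-conductance channel were led by Kcnmb2 in cerebellum (44.9%) and by Kcnmb4 in the forebrain, with 75.8% in prefrontal cortex (Kcnmb4 overlaps Kcnmb4os2, and their reads cannot be told apart). Small-conductance calcium-activated channels, which carry afterhyperpolarizations, summed to between 10.4 and 13.5 RPKM on average, led by Kcnn2 except in prefrontal cortex, where Kcnn1 came first. Kcnrg, a cytosolic regulator, stayed under 0.720 RPKM in every library, and it overlaps Dleu2, so that even these reads may be shared.

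**Figure D1:**
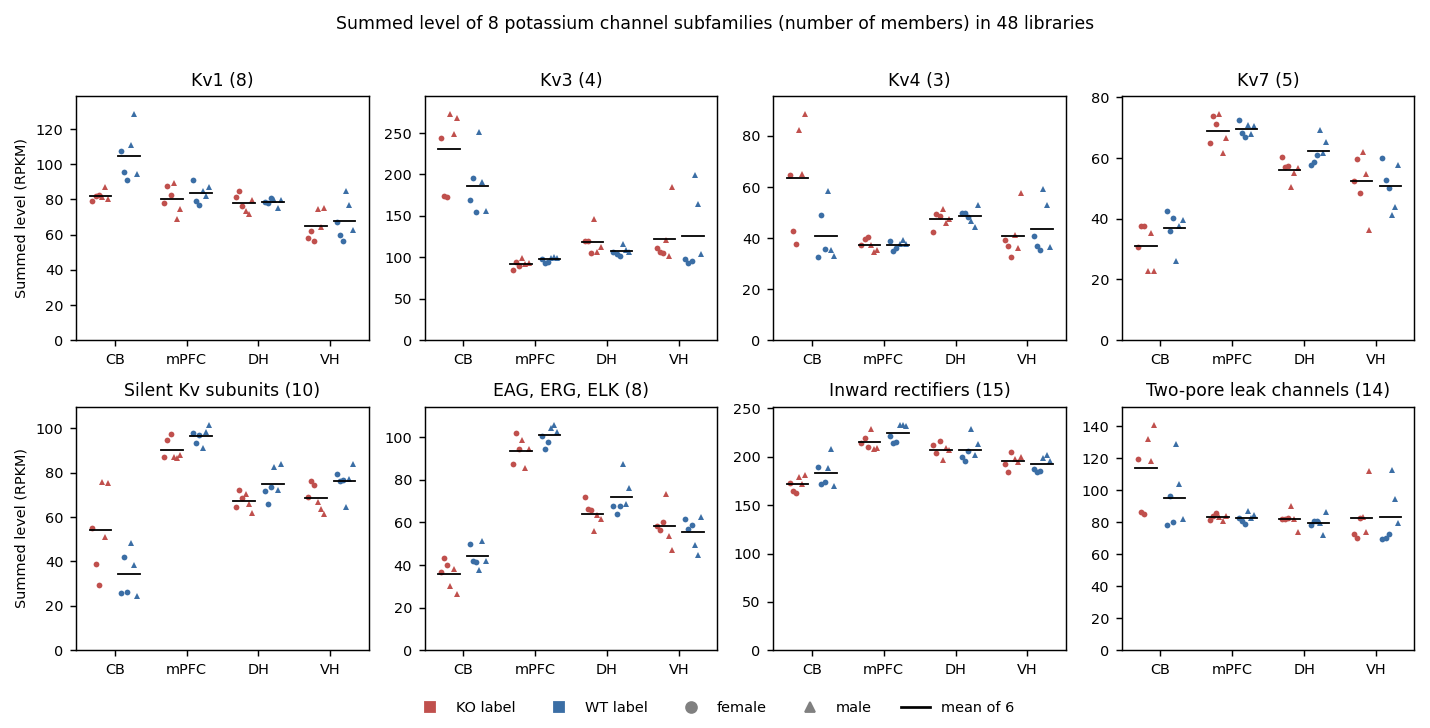
Summed RPKM of 8 subfamilies in each of 48 libraries (CB, cerebellum; mPFC, medial prefrontal cortex; DH and VH, dorsal and ventral hippocampus); circles are females, triangles males, red the KO label, blue the WT label, and lines the mean of 6 libraries. Kv3 sums lie above 150 RPKM in every cerebellar library, but ventral hippocampal ones reach 199 RPKM and overlap with them. Kv7 and EAG, ERG and ELK sums are lower in cerebellum than in prefrontal cortex, with no overlap.

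Between cerebellum and the mean of the forebrain regions, 34 of the 83 members tested differed at an adjusted p under 0.05 and a 2-fold change or more, 13 higher and 21 lower in cerebellum. That is 41.0% of members, against 15.3% of all 19183 genes called by the same rule, of which 7.26% were higher and 8.01% lower. At an adjusted p alone, 73 members passed, against 66.3% of all genes. The fit of all libraries gave every region the same estimate of spread per gene and took the libraries as independent. Errors and p of the contrasts between regions may therefore be too small or too large. The members' median log2 change was −0.15, against 0.03 over all genes. Of the 9 silent subunits tested, 7 were lower and 1 higher in cerebellum (median log2 change −2.71), and of the 8 EAG, ERG and ELK genes 3 were lower and 2 higher. In bulk tissue, fewer cells of a type and less RNA per cell cannot be told apart. Cerebellar libraries also held brainstem markers, as given above, and their part in these differences was not tested.

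Members higher in cerebellum included a silent subunit and a fast-firing Kv3 pore. Kcng4, which encodes a silent subunit that joins Kv2 channels, had 39.5 to 275 CPM (median 103.7) in cerebellum, against 3.00 to 9.27 CPM (median 6.89) in prefrontal cortex, 10.6 to 52.0 CPM (median 22.5) in dorsal hippocampus and 3.58 to 98.1 CPM (median 6.30) in ventral hippocampus. Cerebellum overlapped with the hippocampal regions but not with prefrontal cortex, and the log2 change was 3.09 ± 0.24 (SE, adjusted p = 7.62e-14, edgeR quasi-likelihood test). Without the 14 libraries that stood apart it was 3.67 (adjusted p = 1.05e-16). Kcnc1 had 385 to 754 CPM (median 464) in cerebellum, against 198 to 244 CPM in prefrontal cortex, 217 to 356 CPM in dorsal and 184 to 538 CPM in ventral hippocampus. Its cerebellar range overlapped with the ventral one alone. The log2 change of Kcnc1, a Kv3 pore, was 1.09 ± 0.09 (adjusted p = 2.90e-13). It lay close to the 2-fold limit and fell short of it at 0.94 with the WT label only and at 0.996 without libraries of replicate number 1.

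The other named members on this side were of several kinds. Kcne1l, a single-span auxiliary subunit, had 8.02 to 14.9 CPM in cerebellum, against 1.42 to 3.48 CPM in prefrontal cortex, 2.14 to 4.83 CPM in dorsal and 2.21 to 7.85 CPM in ventral hippocampus. All 12 cerebellar libraries lay above every forebrain library, and the log2 change was 1.79 ± 0.10 (adjusted p = 1.35e-17). Kcnh2, the ERG channel of the heart's rapid delayed rectifier, differed by 1.12 ± 0.07 (adjusted p = 5.41e-17; 0.97 without replicate number 2), and the inward rectifier Kcnj12 by 1.35 ± 0.20 (adjusted p = 2.11e-07; 0.93 with the WT label only). Kcnk15, of the TASK leak channels, had the largest fitted change, 4.18 ± 0.37, but at 0.0545 to 5.97 CPM in cerebellum and at most 2.02 CPM elsewhere it was too low to be picked by the naming rule.

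**Figure D2:**
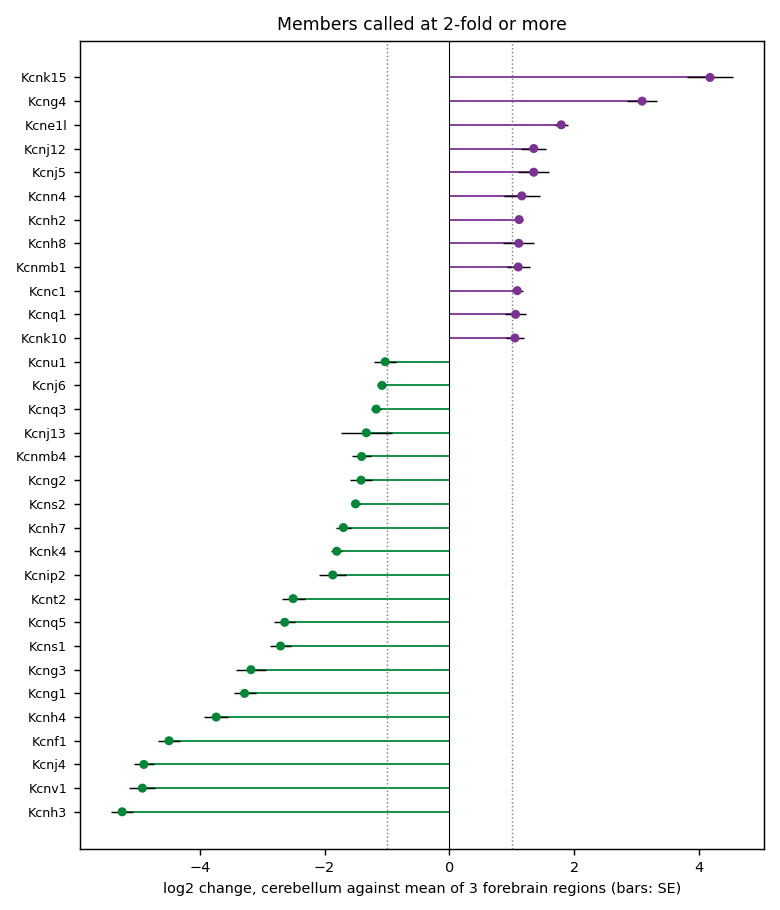
Fitted log2 change (horizontal axis) of most of the members called between cerebellum and the mean of 3 forebrain regions, with bars for the SE; dotted lines mark 2-fold. Positive values run up to 4.18 (Kcnk15) and negative ones down to −5.25 (Kcnh3).

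The forebrain side held larger changes. Kcnh3, an ELK channel of forebrain neurons, had 0.835 to 17.0 CPM (median 5.11) in cerebellum, against 223 to 267 CPM in prefrontal cortex, 119 to 208 CPM in dorsal and 85.5 to 177 CPM in ventral hippocampus. No cerebellar library came near the forebrain range, and the log2 change was −5.25 ± 0.18 (adjusted p = 3.60e-24). Kcnh3 overlaps Mcrs1, whose counts come to more than 10% of its own, and with no strand stated their reads cannot be told apart. Kcnj4 (chr15:79367915-79389442, mm39, minus strand), an inward rectifier at excitatory synapses, had 0.991 to 10.8 CPM in cerebellum, against 146 to 181 CPM in prefrontal cortex, 90.0 to 146 CPM in dorsal and 73.7 to 142 CPM in ventral hippocampus. Its log2 change was −4.90 ± 0.15 (adjusted p = 2.75e-25), the smallest p among members. The silent subunits Kcnv1 and Kcnf1 differed by −4.92 ± 0.21 (adjusted p = 1.31e-21) and −4.50 ± 0.18 (adjusted p = 1.97e-22), and here too the groups did not overlap. Kcnh4, another ELK channel, and the silent subunit Kcng1 followed at −3.74 ± 0.19 and −3.28 ± 0.18 (adjusted p = 4.88e-19 and 1.53e-18).

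Outside the naming rule, and picked after their values were seen, further members lower in cerebellum were the Kv7 pores Kcnq5 (−2.64) and Kcnq3 (−1.17) and the KChIP Kcnip2 (−1.87). None of the 6 Kv1 genes, 3 Kv4 genes or 3 beta subunits tested passed the 2-fold limit. Without the 14 libraries, 38 members were called in place of 34, and the 12 members named by the rule kept their direction.

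**Figure D3:**
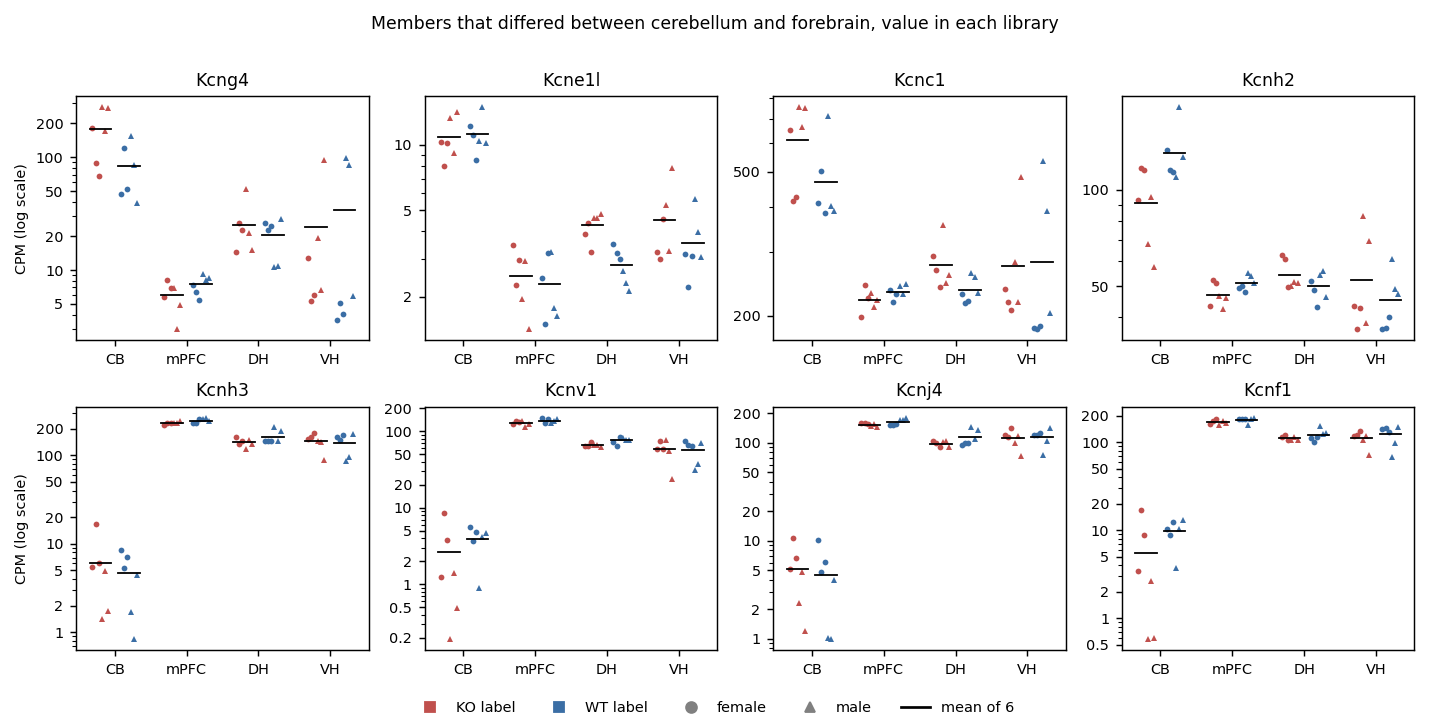
CPM (log scale) of 8 members in each library by region, KO label left of WT label (symbols as in the plot of subfamily sums). The upper row is higher in cerebellum, where Kcne1l does not overlap any forebrain library, and the lower row lies at 17.1 CPM or less in cerebellum and above 23.9 CPM in every forebrain library.

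Between medial prefrontal cortex and hippocampus, few members differed by 2-fold or more. Of 83 members, 4 were called at 2-fold or more (4.82%, against 4.39% of all genes, 1.2% higher and 3.19% lower), 2 higher and 2 lower in prefrontal cortex, which is near the background. At an adjusted p alone 41 members passed, against 33.8% of all genes. The smallest p, picked after they were seen, were those of the small-conductance channel Kcnn2 (−0.48 ± 0.03, adjusted p = 2.06e-13) and the Kv1 pore Kcna6 (0.50 ± 0.04, adjusted p = 1.07e-11), both short of 2-fold. Kcnh4 had 18.6 to 30.7 CPM in prefrontal cortex, against 8.06 to 16.7 CPM in dorsal and 3.58 to 14.1 CPM in ventral hippocampus, with a log2 change of 1.21 ± 0.14 (adjusted p = 6.89e-09) and no overlap. Kcnv1 likewise had 115 to 151 CPM in prefrontal cortex, against 61.8 to 83.0 CPM in dorsal and 24.0 to 77.4 CPM in ventral hippocampus (1.06 ± 0.14, adjusted p = 2.05e-07; 0.91 without the libraries that stood apart). Kcng4 was lower in prefrontal cortex (−1.56 ± 0.33, adjusted p = 0.000299), but −0.99 without those libraries, and its high ventral values were in libraries with high granule cell markers. Kcnh8 (−1.85 ± 0.33, adjusted p = 2.77e-05) was also called, at under 4 CPM throughout, and is named because it completes the count of 4.

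Dorsal and ventral hippocampus gave 3 called members, all higher in dorsal (3.61%, against 2.47% of all genes, or 1.53% higher). At an adjusted p alone 30 members passed, against 16.8% of all genes. Kcnh5, an EAG channel, had 10.3 to 27.9 CPM (median 21.5) in dorsal hippocampus, against 5.18 to 25.4 CPM (median 8.18) in ventral hippocampus. The ranges overlapped and the log2 change was 1.11 ± 0.24 (adjusted p = 0.00114), but no member (0) was called when libraries of replicate number 2 or 3 were left out. The other called members, Kcnj5 (1.49 ± 0.33) and Kcnh8 (1.17 ± 0.31), lay under 4 CPM and are named to complete the count.

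The KO and WT labels differed most in the cerebellum, where 12 of 80 members tested were called (adjusted p under 0.05), 1 higher and 11 lower with the KO label. That is 15.0% of members, against 7.98% of all 17825 genes (2.43% higher, 5.55% lower), and the members' median log2 change was −0.31, against 0.00 over all genes. CPM values from here on use the scaling of the region's own 12 libraries. The called members came from most roles: 1 Kv1, 1 Kv2 and 1 Kv3 pore, 1 silent subunit, 1 beta subunit and 1 KChIP, 1 ERG channel, 1 small-conductance calcium-activated channel, 2 inward rectifiers and 2 leak channels. All 12 adjusted p lay between 0.0427 and 0.0476, just inside the threshold.

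Kcna2 (chr3:107008462-107022321, mm39, plus strand), a Kv1 pore of axons, had 411 to 491 CPM (median 458) in libraries labelled KO, against 514 to 654 CPM (median 575) in libraries labelled WT. It was the only one of the 12 whose groups did not overlap, at a log2 change of −0.34 ± 0.08 (adjusted p = 0.0427). The share of all genes whose groups do not overlap is not given, here or for genes named below. The Kv2 pore Kcnb2 had 3.70 to 22.8 CPM (median 11.6) with the KO label, against 17.9 to 33.9 CPM (median 29.6) with the WT label, a change of −1.23 ± 0.29. Its lowest KO libraries lay far below any WT library, but the ranges met. The Kv3 pore Kcnc4 had a median of 77.4 CPM with the KO label, against 139 CPM with the WT label (−0.70 ± 0.18, adjusted p = 0.0474). Kcnh2, which completes the count, had 59.7 to 125 CPM (median 98.3) with the KO label, against 117 to 184 CPM (median 129) with the WT label (−0.54 ± 0.14, adjusted p = 0.0476).

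Of the auxiliary and silent subunits, Kcns3, which modulates Kv2 channels, had 3.01 to 6.70 CPM (median 4.30) with the KO label, against 6.60 to 19.5 CPM (median 7.97) with the WT label (−1.11 ± 0.21). The beta subunit Kcnab2 had 112 to 285 CPM (median 192) with the KO label, against 277 to 475 CPM (median 323) with the WT label (−0.83 ± 0.17). Both pairs of ranges met at their edges. Kcnip4, a KChIP that slows Kv4 inactivation, was the member that rose, with 61.9 to 114 CPM (median 89.9) in KO-labelled libraries, against 55.2 to 76.9 CPM (median 61.1) in WT-labelled libraries (0.45 ± 0.11, adjusted p = 0.0460). It overlaps 5730480H06Rik, whose counts come to more than 10% of its own, so their reads cannot be told apart.

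The remaining called members fell. Kcnj10, the astrocytic and oligodendroglial inward rectifier, had 325 to 518 CPM (median 377) with the KO label, against 498 to 731 CPM (median 582) with the WT label (−0.56 ± 0.11). Kcnk13, a leak channel known from microglia, had a median of 6.79 CPM with the KO label, against 12.2 CPM with the WT label (−0.93 ± 0.20). The calcium-activated Kcnn1 (−0.65 ± 0.12), the inward rectifier Kcnj14 (−1.42 ± 0.34) and the mechanosensitive leak channel Kcnk4 (−0.81 ± 0.21) completed the list, and Kcnk4 shares its place in the same way with Catsperz.

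**Figure D4:**
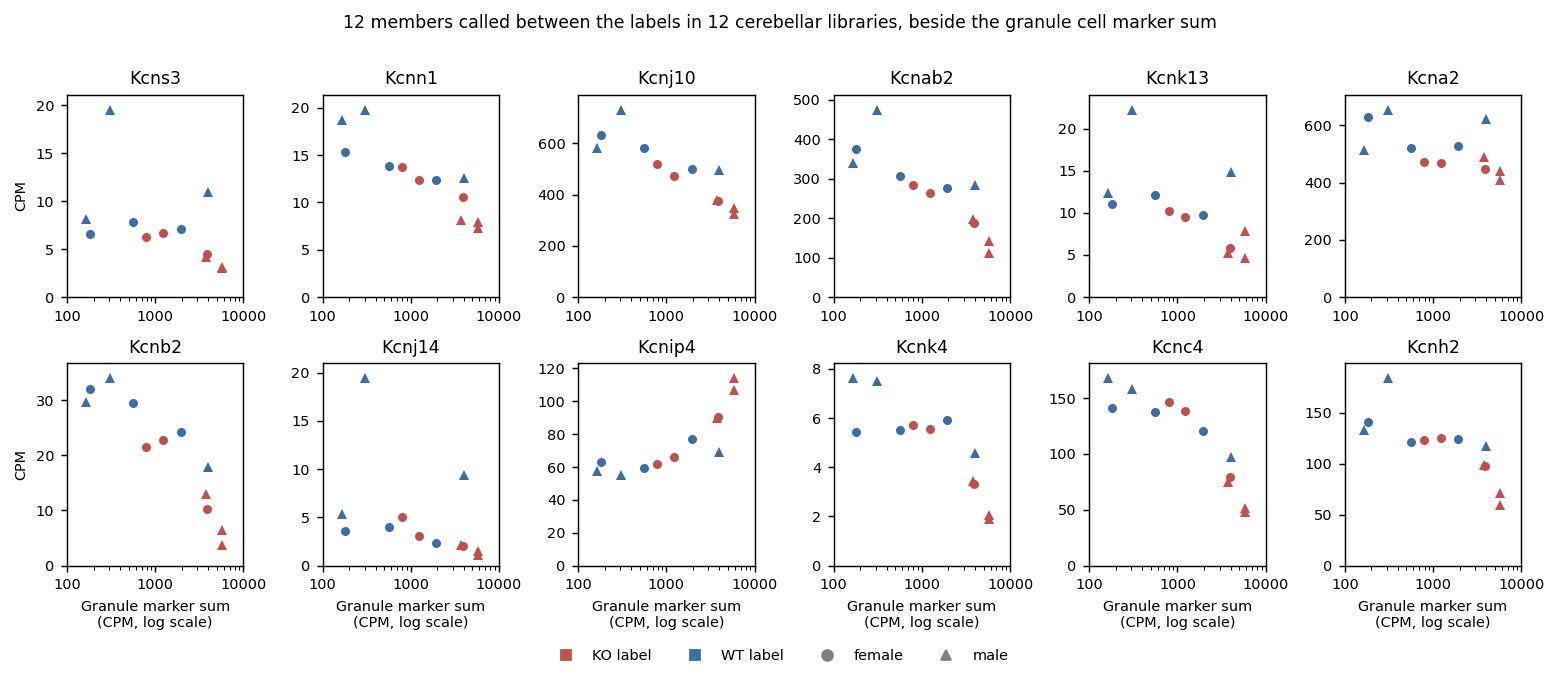
CPM of the 12 called members (vertical axes) against the summed CPM of 8 granule cell markers (horizontal axes, log scale) in 12 cerebellar libraries, red for the KO label and blue for the WT label, circles for females and triangles for males. Libraries labelled KO lie between 791 and 5786 CPM of markers and those labelled WT between 165 and 3999 CPM.

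Cell type markers moved with the label in these libraries. Brainstem and thalamus marker sums, given above for the whole region, are not split by label here. All 8 granule cell markers had a higher mean with the KO label, and their sum was 791 to 5786 CPM (median 3825) in libraries labelled KO, against 165 to 3999 CPM (median 434) in libraries labelled WT, though no marker was called. All 7 Purkinje cell markers also had a higher KO mean, with sums of 1283 to 6982 CPM with the KO label, against 393 to 3725 CPM with the WT label. Of 9 oligodendrocyte markers, 6 fell with the KO label (sums of 4252 to 8012 CPM, against 7012 to 16846 CPM with the WT label), as did 3 of 5 precursor and 3 of 7 microglial markers. With the granule marker mean in the model, 0 of 80 members were called, and the 12 kept their sign at adjusted p from 0.507 to 0.629. Kcna2 (−0.31), Kcns3 (−0.98), Kcnk13 (−0.75) and Kcnj14 (−1.07) moved least. Kcnab2 then stood at −0.48, Kcnb2 at −0.69, Kcnc4 at −0.27, Kcnh2 at −0.30, Kcnj10 at −0.30, Kcnk4 at −0.46, Kcnn1 at −0.33 and Kcnip4 at 0.21, each smaller by over 1.5 times.

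Given here without the share of all genes called in the same fits, the cerebellar count rested on each library. It was 0 without KO female 1, KO female 2, KO male 1, KO male 3, WT female 1, WT female 2, WT female 3 or WT male 2, 1 (Kcns3) without WT male 3, 7 without KO female 3, 27 without KO male 2 and 46 without WT male 1. Without the 5 cerebellar libraries that stood apart (KO male 1 and 3, WT female 1, WT male 2 and 3), 1 member was called, Kcnip2, which was not among the 12, and male groups were down to 1 library per label. The 12 kept their sign there too, at adjusted p from 0.468 to 0.819. Kcnab2 stood at −0.37, Kcnb2 at −0.50, Kcnc4 at −0.22, Kcnh2 at −0.15, Kcnj10 at −0.31, Kcnk4 at −0.30, Kcnn1 at −0.35 and Kcnip4 at 0.26, again smaller by over 1.5 times. Kcna2 (−0.24), Kcns3 (−0.87) and Kcnk13 (−0.91) moved by less, as did Kcnj14.

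In the dorsal hippocampus, 2 of 80 members were called (2.50%, against 0.655% of all 17402 genes, 0.184% higher and 0.471% lower). Kcns2 (chr15:34837501-34843553, mm39, plus strand), a silent subunit, had 30.3 to 38.6 CPM (median 33.9) in libraries labelled KO, against 41.7 to 50.7 CPM (median 43.7) in libraries labelled WT. The groups did not overlap and the log2 change was −0.38 ± 0.06 (adjusted p = 0.0161). Kcne1l had 3.18 to 4.79 CPM (median 4.47) with the KO label, against 2.11 to 3.47 CPM (median 2.77) with the WT label, and rose by 0.62 ± 0.13 (adjusted p = 0.0451). Kcng1, another silent subunit, came next by p: 18.0 to 25.2 CPM with the KO label, against 25.9 to 37.0 CPM with the WT label, no overlap, −0.42 ± 0.09, but an adjusted p of 0.0584. Members had a median log2 change of −0.02, against 0.01 over all genes.

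Markers also differed between the labels there. The 5 dentate granule cell markers summed to 59.9 to 158 CPM (median 129) with the KO label, against 142 to 233 CPM (median 162) with the WT label, each with a lower KO mean and none called, and their part in the result was not tested. The share of all genes called is not given for the fits that follow. The count of called members was 0 without WT female 1, WT female 3 or WT male 1, 1 without KO female 1, KO female 2, WT female 2 or WT male 3, 4 without WT male 2 and 5 without KO male 1. Kcns2 kept an adjusted p under 0.05 in 9 of 12 such fits (0.0138 to 0.0620) and Kcne1l in 1 of 12 (0.0320 to 0.141). Without the 4 dorsal libraries that stood apart (KO female 1, KO male 1, WT male 1 and 2) 10 members were called, with Kcns2 at an adjusted p of 0.0130, Kcng1 at 0.00480 and Kcne1l at 0.0977.

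No member was called by edgeR between the labels in the medial prefrontal cortex (0 of 78, against 0.240% of all genes) or the ventral hippocampus (0 of 81, against 0.0748%). At an unadjusted p under 0.05 there were 10 and 4 members, against 13.1% and 4.34% of all genes, and DESeq2 called 1 and 0 members, against 1.13% and 0.109% of all genes. These counts are near the background. In prefrontal cortex Kcns2 again had the smallest p, with 34.3 to 43.8 CPM (median 38.7) in libraries labelled KO, against 39.2 to 52.0 CPM (median 46.8) in libraries labelled WT (−0.24 ± 0.06, adjusted p = 0.0994). The ranges overlapped, and without KO male 1 it was called (adjusted p = 0.0382). Kcna5 and Kcnh1 followed, at 0.60 ± 0.19 and −0.19 ± 0.06 (adjusted p = 0.205 and 0.207). In ventral hippocampus Kcnj10 had a median of 244 CPM with the KO label, against 199 CPM with the WT label (0.28 ± 0.09), and Kcnk9 differed by 0.29 ± 0.12, each at an adjusted p of 1.

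The label difference varied between the regions for 22 of 83 members (26.5%, against 7.79% of all genes; joint F test over all 48 libraries). For 20 of these 22 the largest fitted size was in the cerebellum. This joint fit used the same estimate of spread per gene for every region, although cerebellar replicates mostly differed more than prefrontal ones. Its errors for the cerebellum may therefore be too small, and it called more cerebellar members for the label than the region's own fit. Kcnj10 (adjusted p = 0.00270) had log2 changes of −0.56 in cerebellum, −0.02 in prefrontal cortex, 0.26 in dorsal and 0.28 in ventral hippocampus. Kcns3 (adjusted p = 0.00322) had −1.11, −0.19, −0.02 and 0.02 in the same order, and Kcnb2 (adjusted p = 0.00536) had −1.23, −0.10, −0.02 and −0.06. Kcnc4 and Kcnab2 followed (adjusted p = 0.00631 and 0.00688). The count was 0 without the cerebellum, 3 without the libraries that stood apart (Kcnip2, Kcnj4 and Kcnj10), and 11, 2 and 1 without replicate numbers 1, 2 and 3.

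The label difference also depended on sex in the medial prefrontal cortex. There 4 of 78 members were called for the female minus the male label difference (5.13%, against 1.61% of all genes, or 0.797% positive), all positive: the beta subunit Kcnab1, the Kv1 pores Kcna4 and Kcna5, and Kcnip2. Kcnab1 (chr3:64856617-65285644, mm39, plus strand) had 97.6, 130 and 133 CPM in KO-labelled females, against 95.3, 80.9 and 82.7 CPM in WT-labelled females, and 81.7, 79.0 and 84.0 CPM in KO-labelled males, against 109, 107 and 123 CPM in WT-labelled males. So the KO label was the higher one in females and the lower one in males, with no overlap in either sex. The difference was 0.95 ± 0.14 (adjusted p = 0.00514).

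Kcna4 averaged 30.2 ± 4.74 CPM in KO-labelled and 23.1 ± 2.77 CPM in WT-labelled females, and 19.2 ± 1.58 CPM in KO-labelled and 26.9 ± 2.71 CPM in WT-labelled males (SD, n = 3 each; 0.88 ± 0.17 SE; edgeR adjusted p = 0.0232). Kcna5 averaged 6.86 ± 2.34 CPM in KO-labelled and 2.40 ± 0.0626 CPM in WT-labelled females, and 3.46 ± 1.03 CPM in KO-labelled and 4.27 ± 0.747 CPM in WT-labelled males (SD, n = 3 each; 1.84 ± 0.38 SE; edgeR adjusted p = 0.0278). Kcnip2 averaged 158 ± 21.6 CPM in KO-labelled and 128 ± 7.19 CPM in WT-labelled females, and 108 ± 13.2 CPM in KO-labelled and 134 ± 15.4 CPM in WT-labelled males (SD, n = 3 each; 0.63 ± 0.15 SE; edgeR adjusted p = 0.0437). All 4 members therefore had the same crossed order of the groups' means.

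The 9 striatal projection neuron markers were crossed in the same way. Their sums were 777, 1596 and 1589 CPM in KO-labelled females, against 710, 452 and 541 CPM in WT-labelled females, and 427, 475 and 577 CPM in KO-labelled males, against 959, 824 and 1122 CPM in WT-labelled males. With the striatal marker mean in the model 0 of 78 members were called: Kcnab1 stood at 0.18 (adjusted p = 0.878), Kcna5 at 0.09 and Kcnip2 at 0.04 (adjusted p = 0.988 each), and Kcna4 turned to −0.027 (adjusted p = 0.992). Kcnab1 was called whichever library was left out, while the count of members ran from 1 (without KO female 2, KO female 3, WT female 2, WT female 3 or WT male 3) through 2 (without WT male 2) and 7 (without WT female 1 or WT male 1) to 10 (without KO male 1, the prefrontal library that stood apart). Shares of all genes called in these fits are not given here.

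**Figure D5:**
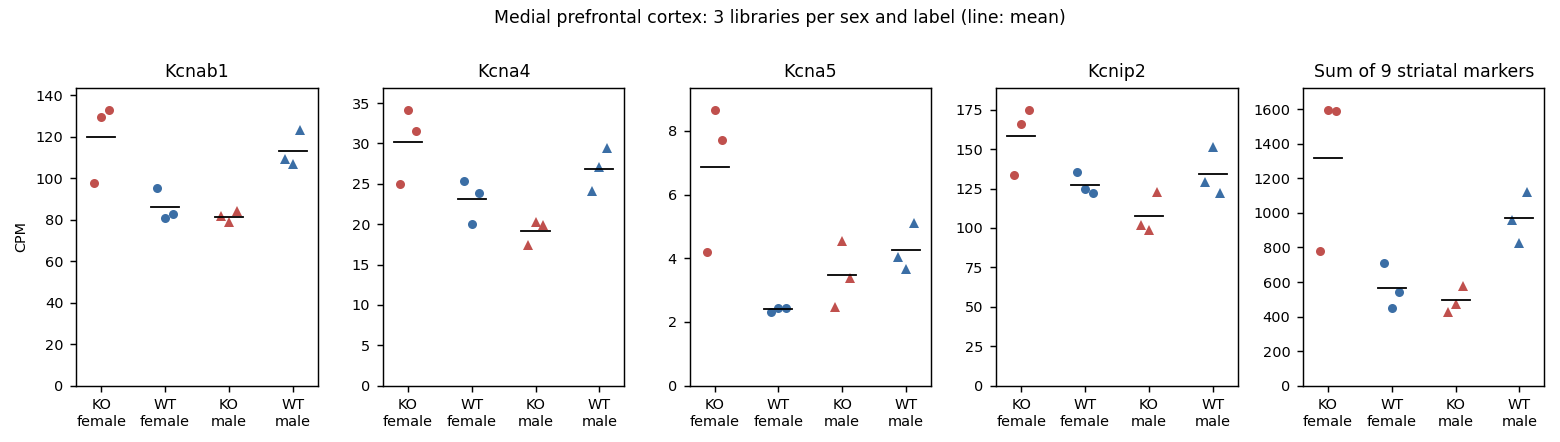
CPM in medial prefrontal cortex of the 4 members called for a label difference that depends on sex, and the summed CPM of 9 striatal markers, with 3 libraries per sex and label and a line at their mean. In each panel the KO label has the higher mean in females and the lower mean in males.

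In the other regions edgeR called no member for sex by label: 0 of 80 in cerebellum, 0 of 80 in dorsal and 0 of 81 in ventral hippocampus, as for all genes (0%). At an unadjusted p under 0.05 there were 20, 15 and 3 members, against 13.5%, 12.9% and 4.34% of all genes. DESeq2 called 3, 1 and 0 members, against 0.909%, 1.63% and 0.00575% of all genes. The smallest p were those of Kcnj14 in cerebellum (2.88 ± 0.69, adjusted p = 0.305), Kcna3 in dorsal hippocampus (1.31 ± 0.23, adjusted p = 0.130; an overlapping unnamed gene may share its reads) and Kcnj9 in ventral hippocampus (0.41 ± 0.14, adjusted p = 0.953).

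Between females and males, edgeR called 0 members in any region, against 0.0393% of all genes in cerebellum, 0.105% in prefrontal cortex, 0.0575% in dorsal and 0.0345% in ventral hippocampus. At an unadjusted p under 0.05 there were 29, 6, 8 and 26 members in that order, against 17.1%, 9.3%, 7.79% and 18.5% of all genes. DESeq2 called 2, 0, 1 and 8 members, against 0.41%, 0.486%, 0.172% and 2.92% of all genes. The smallest p belonged to Kcnj4 in cerebellum (1.67 ± 0.43, adjusted p = 0.262), Kcnip2 in prefrontal cortex (0.24 ± 0.07, adjusted p = 0.317), Kcne2 in dorsal hippocampus (4.29 ± 0.89, adjusted p = 0.334) and Kcna1 in ventral hippocampus (−0.68 ± 0.16, adjusted p = 0.163). Kcne2 was low, at a mean of 0.644 RPKM in dorsal hippocampus and with 0 counts in 10 libraries over all regions. Summed choroid plexus markers ran from 19.4 to 955 CPM between dorsal libraries, and their part in its difference was not tested. Without the 4 ventral libraries that stood apart Kcna1 stood at −0.30 (adjusted p = 0.998), and 0 members were called. In ventral hippocampus the count was 4 without KO male 2 and 16 without WT male 3, and in cerebellum it was 1 and 2 without the libraries of the same names. Shares of all genes called in these fits are not given here. The 3 ventral libraries with the highest granule cell marker sums were all from males.

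Genes that work with these channels were tested as well. Of 4 HCN channels, cation pores that open on hyperpolarization, 2 fell with the KO label in cerebellum: Hcn2 had 145 to 302 CPM in libraries labelled KO, against 270 to 545 CPM in libraries labelled WT (−0.72 ± 0.15, adjusted p = 0.0427), and Hcn4 had a median of 18.0 CPM with the KO label, against 32.3 CPM with the WT label (adjusted p = 0.0428). Of 15 partners tested, 2 fell there, Cntnap2, which clusters Kv1 channels beside the node of Ranvier (−0.66 ± 0.15), and Vapb, which binds Kv2 channels (−0.34 ± 0.08), both at an adjusted p of 0.0427. Of 14 pumps and cotransporters, 1 fell there, the sodium pump regulator Fxyd6 (−0.97 ± 0.26, adjusted p = 0.0484). Over all genes 5.55% fell there, and the granule cell markers differed between these libraries as given above. With the granule marker mean in the model none (0) of these 5 genes was called (adjusted p from 0.507 to 0.710): Hcn2 stood at −0.54, Hcn4 at −0.62, Cntnap2 at −0.27, Vapb at −0.15 and Fxyd6 at −0.24. Without the 5 libraries that stood apart they were at −0.54, −0.39, −0.21, −0.14 and −0.19 in the same order (adjusted p from 0.494 to 0.877). In the dorsal hippocampus 2 of the 14 pumps and cotransporters rose with the KO label, against 0.184% of all genes. Atp1b2, a subunit of the glial sodium pump, had 657 to 822 CPM in libraries labelled KO, against 549 to 604 CPM in libraries labelled WT, with no overlap (0.32 ± 0.05, adjusted p = 0.00783; 0.32 and 0.00163 without the 4 libraries that stood apart). Between cerebellum and forebrain, Hcn4 and Lrrc38 were higher in cerebellum (1.47 ± 0.11 and 1.19 ± 0.21) and Fxyd7 and Lrrc55 lower (−1.37 ± 0.06 and −1.38 ± 0.15). Lrrc55, an auxiliary subunit of large-conductance channels, was also higher in dorsal than in ventral hippocampus (1.46 ± 0.17, adjusted p = 2.55e-07).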

How the data were processed

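RNA-seq counts per gene were deposited for 48 libraries; per the submitters' processing notes reads were aligned with HISAT2 2.0.5 to mm39, and the counting tool and strand setting are not given in the sources used here. Gene lengths are the deposited ones. Samples were grouped by region, sex and label from their titles. Counts were tested with edgeR 4.0.16 (R 4.3.3, limma 3.58.1): TMM scaling, filterByExpr (minimum count 10, minimum total 15), quasi-likelihood F test, Benjamini-Hochberg adjustment over all genes tested. Label and sex were fitted within each region (12 libraries), and regions in 1 fit of 48 libraries, where a call also needed 2-fold. Errors beside log2 changes are SE. The script was tested on simulated data. Named per comparison were at most 10 called members by p (labels), 6 each way by size with a mean of at least 50 counts (regions), or 5 by p (sex, sex by label, label by region), otherwise those of smallest p, plus the 5 highest RPKM per region. Some items that these rules name are not reported here. Members and lists were chosen with earlier results of these data known. No source says that libraries came from separate animals beyond calling them biological replicates, so p-values measure the spread between these samples. DESeq2 1.42.0 and further settings were tried as alternatives.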

Additional observations from a re-analysis of the deposited data

Results flagged for a closer look

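Among 44 groups of 6 libraries examined for a library far from the others, 1 had one, where chance gives about 1 in 20. Kcns3 reached 19.51 CPM in cerebellar WT male 2, while the other 5 libraries labelled WT lay between 6.604 and 10.96 CPM. The same library had a granule cell marker sum of 306 CPM, and the part of this in its high Kcns3 value was not tested. With the granule marker mean in the model, the label change of Kcns3 was −0.98, as given above.

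By a test of the difference itself, the label difference depended on sex in the medial prefrontal cortex for Kcnab1 (adjusted p = 0.00514), Kcna4 (0.0232), Kcna5 (0.0278) and Kcnip2 (0.0437), beside striatal markers that were crossed in the same way. It varied between regions for 22 members, with the smallest adjusted p for Kcnj10 (0.0027), Kcns3 (0.00322), Kcnb2 (0.00536), Kcnc4 (0.00631) and Kcnab2 (0.00688), and for 0 members without the cerebellum. All p come from edgeR's quasi-likelihood test. For variation between regions that test gave every region the same estimate of spread, although cerebellar replicates mostly differed more than prefrontal ones.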

How the results depend on the processing

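Over 46 log2 changes of named members and their 747 alternatives, 558 kept direction and side of the threshold, 166 no longer passed, 22 newly passed and 1 reversed, Kcna4 for sex by label in prefrontal cortex (−0.027 with the striatal marker mean). The share of all genes called differed between settings, for the label in prefrontal cortex from 0.24% with edgeR to 1.13% with DESeq2. That share is not given here for most settings, so the counts below do not compare members with other genes. Counts of called members moved as follows. With DESeq2 the label counts were 33 in cerebellum, 9 in dorsal hippocampus and 1 in prefrontal cortex, sex by label 3, 1 and 8 in the same regions, and sex 2 in cerebellum, 1 in dorsal and 8 in ventral hippocampus. With no filter on low counts the label gave 22 in cerebellum, 26 in dorsal hippocampus and 4 in prefrontal cortex, sex by label 8 in dorsal hippocampus and 12 in prefrontal cortex, and sex 7 in dorsal hippocampus, 1 in prefrontal cortex and 15 in ventral hippocampus. With a marker covariate the label gave 0 in cerebellum and 4 in dorsal hippocampus, and sex by label 0 in prefrontal cortex. Without the 14 libraries that stood apart the label gave 1 in cerebellum, 10 in dorsal hippocampus and 1 in prefrontal cortex, sex 1 in cerebellum, sex by label 4 in dorsal hippocampus and 10 in prefrontal cortex, dorsal against ventral 6, and variation of the label between regions 3 (0 without the cerebellum). There a lone library in a group is assumed to vary like the others. In 1 fit of all libraries the label gave 49 in cerebellum and 1 in dorsal hippocampus. The cause of these moves was not tested. Leaving out 1 library, or all libraries of 1 replicate number for contrasts that span regions, gave 0 to 46 for the label in cerebellum, 0 to 5 in dorsal hippocampus and 0 to 1 in prefrontal cortex, 0 to 2 and 0 to 16 for sex in cerebellum and ventral hippocampus, 1 to 10 for sex by label in prefrontal cortex, 0 to 4 for dorsal against ventral, 33 to 36 for cerebellum against forebrain and 1 to 11 for variation between regions.

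Replicate numbers did not pair the libraries: deviations of equally numbered KO and WT libraries correlated at −0.66 to 0.21, over 0.1 in 5 of 24 pairs. Libraries of 2 regions with the same label, sex and number correlated at −0.38 to 0.45, over 0.1 in 24 of 72 pairs, 8 of them among the 12 of cerebellum with ventral hippocampus; whether they share an animal is not stated. With a replicate block the counts were 9 for the label in cerebellum and 3 in dorsal hippocampus (without Kcne1l), 3 for sex by label in prefrontal cortex, 23 for variation between regions and 33 for cerebellum against forebrain. Depth was not varied; 13 to 16 members per region were too low to test.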
